A study of Ovis aries with 115 samples.

Results

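Cervical RNA of ewes of the Norwegian breeds Fur and NWS (Norwegian White Sheep) was compared with that of Belclare ewes, all in the follicular phase after hormonal synchronisation. The libraries were chosen by their labels for breed, cycle and phase alone, which gave 28 of the 115 libraries of the study: 10 of Belclare, 8 of Fur and 10 of NWS. Each library was made from mid-cervical tissue taken post-mortem from 1 multiparous ewe aged 4 to 5 years. All 28 ewes had received the same treatment, an intravaginal progestagen sponge followed at its removal by equine chorionic gonadotropin. The study asked how the cervix differs between breeds that differ in pregnancy rate after cervical insemination with frozen-thawed semen, and ranked both Norwegian breeds above Belclare. Belclare ewes were sampled in Ireland, and Fur and NWS ewes in Norway, so a difference of breed cannot be told apart from one of country.

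The ovine cervix is a folded tube of columnar mucosa over collagen-rich stroma and smooth muscle. Around oestrus, oestrogen loosens its matrix and the epithelium secretes thin mucus. Mucins, ion and water channels and the tight junctions between epithelial cells set the amount and the hydration of that mucus. Leukocytes and proteins of the innate defence stand at the luminal surface, where spermatozoa must pass.

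The values were raw read counts, 14461289 to 22668698 per library. Mean totals differed between NWS and Belclare (two-sided permutation test, p = 0.0259) and not detectably between Fur and Belclare (exact permutation test, p = 0.662). Levels are given as CPM (counts scaled by the reads assigned to genes in each library, with TMM factors), so they compare ewes for 1 gene and not genes with each other. Differences are log2 fold changes with their standard errors, positive where the Norwegian breeds were higher. Genes were called differentially expressed (DEGs) at an adjusted p under 0.05 and a fold change above 1.5. In bulk tissue, fewer cells of a type and less RNA per cell cannot be told apart. All 28 libraries held RNA of epithelium and smooth muscle, which the cervix contains, although these markers alone do not identify the organ. Columnar epithelial markers (CDH1, CLDN3, CLDN4, CLDN7, MUC1 and WFDC2) summed to 580.4 to 3210 CPM, and the smooth muscle markers DES and ACTG2 to 72.8 to 13090 CPM.

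The Norwegian breeds differed from Belclare in 2236 DEGs, which is 15.1% of 14811 genes tested, with 1139 higher (7.69%) and 1097 lower (7.41%). The differences were mostly modest. The median log2 fold change was 0.85 among genes called higher and -0.80 among genes called lower, and 43 genes rose and 32 fell by over 4-fold. Against Belclare, Fur had 1510 DEGs (10.2%), 849 higher and 661 lower (4.46%), and NWS had 2533 (17.1%), 1302 higher (8.79%) and 1231 lower (8.31%). These 2 comparisons share the Belclare ewes. Of the genes called, 1185 were called in both, 78.5% of the Fur list and 46.8% of the NWS list, and 2 of them lay in opposite directions. Fur and NWS themselves differed in 7 genes (0.0473%), although 957 genes had an unadjusted p under 0.05.

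1 Belclare library stood apart from the other 9. On the first principal component, which held 31.4% of the variance, Belclare replicate 2 scored 54.3, while the other Belclare ewes scored -74.4 to -25.3. The Fur ewes scored -7.43 to 49.2 and the NWS ewes 1.81 to 89.6. Belclare replicate 2 held the highest level of both smooth muscle markers among all 28 ewes and the lowest Belclare level of 25 of 26 epithelial junction identifiers. Without this ewe the calls rose to 3116 for both Norwegian breeds, 2325 for Fur and 3483 for NWS. Counts of each list, and values of single genes that it moved by over 1.5 times, are given with and without it. At the other end, NWS replicate 9 scored 89.6 and was the lowest NWS ewe for MUC1, MUC5B and WFDC2.

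**Figure D1:**
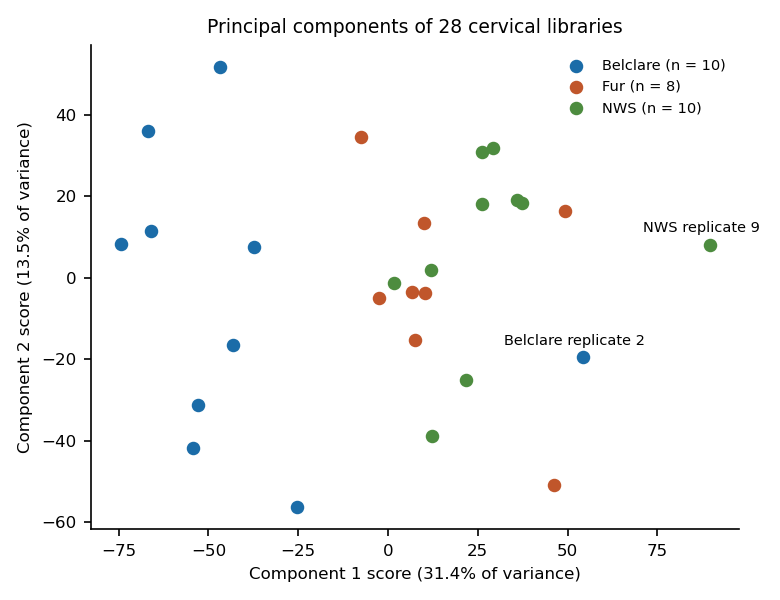
Scores of the 28 libraries on the first component (horizontal, 31.4% of the variance) and the second (vertical, 13.5%), from log2 CPM of 14811 genes, each point 1 ewe coloured by breed. 9 of 10 Belclare ewes lie at -25.3 or below on the first component, and Belclare replicate 2 lies at 54.3, among the Norwegian ewes.

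The muscle genes ACTG2, DES, ASB2, PCP4 and POPDC2 were higher in every Fur and NWS ewe than in 9 of 10 Belclare ewes. Of 22 genes on the smooth muscle list, 8 had a name that could be matched to an identifier, and 5 of these rose, 2 fell and DES did not pass the test. Their median log2 fold change was 2.02, against -0.01 over all genes tested. The study lists ACTG2, DES, ASB2, ACTC1, PCP4 and POPDC2 among its top genes lower in Suffolk than in these Fur or NWS ewes. Names were taken from tables of the study, so the counts and the median of this list are not independent evidence. ACTG2 encodes the gamma actin of visceral smooth muscle. Its levels were 41.8 to 5440 CPM in Belclare (median 77.9), 929 to 4469 in Fur (median 1889) and 807 to 4136 in NWS (median 2432). 9 of 10 Belclare ewes lay below every Norwegian ewe, and Belclare replicate 2 lay above them all. The log2 fold change was 1.79 ± 0.69 (SE, adjusted p = 0.0394), and without Belclare replicate 2 it was 4.19 (adjusted p = 5.3e-08). The call of ACTG2 was lost without any 1 of 12 other ewes, at 1.65 or above. The intermediate filament protein desmin, DES, had the same arrangement of ewes. Its levels were 31 to 7646 CPM in Belclare (median 116), 827 to 4931 in Fur (median 2684) and 1569 to 4787 in NWS (median 3436). Its log2 fold change was 1.74 ± 0.73 (SE, adjusted p = 0.0555) with all ewes and 4.19 (adjusted p = 2.7e-07) without Belclare replicate 2.

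ASB2, PCP4 and POPDC2 had that order of ewes too, and for ACTC1 8 Belclare ewes lay below every Norwegian ewe. ASB2, the substrate-binding subunit of a ubiquitin ligase of muscle cells, was at 0.397 to 38.6 CPM in Belclare (median 1.43), 9.23 to 65.8 in Fur (median 28.3) and 9.49 to 38.4 in NWS (median 29.5). Its log2 fold change was 2.36 ± 0.58 (SE, adjusted p = 0.00207), or 3.97 (adjusted p = 3.9e-08) without Belclare replicate 2. ACTC1, the cardiac form of alpha actin, was at 0.0512 to 5.67 CPM in Belclare (median 0.373), 3.1 to 13.6 in Fur (median 6.38) and 0.898 to 53.6 in NWS (median 7.41). 12 of 18 Norwegian ewes exceeded all Belclare ewes, and the log2 fold change was 3.21 ± 0.65 (SE, adjusted p = 0.00036), or 4.17 (adjusted p = 7.2e-06) without Belclare replicate 2. PCP4, a peptide that modulates calmodulin, was at 0 to 36.6 CPM in Belclare (median 0.109), 12.9 to 72 in Fur (median 31) and 5.57 to 61.8 in NWS (median 33.1). Apart from Belclare replicate 2, the highest Belclare level of PCP4 was 0.366 CPM, below every Norwegian ewe, and the log2 fold change was 3.23 ± 0.89 (SE, adjusted p = 0.00512) over all ewes and 7.96 (adjusted p = 1.9e-09) without that ewe. POPDC2, a cyclic AMP-binding membrane protein of muscle, was at 0 to 12.9 CPM in Belclare (median 0.189), 2.39 to 13.5 in Fur (median 5.94) and 2.46 to 10.8 in NWS (median 7.63). It rose by 2.24 ± 0.73 (SE, adjusted p = 0.0154), or 5.32 (adjusted p = 8.1e-09) without Belclare replicate 2. PNCK, a calmodulin-dependent kinase that stands on no list here, had the same pattern with 0 to 6.73 CPM in Belclare (median 0.0589), 2.01 to 9.94 in Fur (median 6.17) and 2.75 to 11.3 in NWS (median 6.37) and a log2 fold change of 3.02 ± 0.74 (SE, adjusted p = 0.00198), or 6.29 (adjusted p = 1.9e-09) without Belclare replicate 2. Some Belclare ewes had no reads of PCP4, POPDC2 or PNCK, so these fitted values depend on the prior count.

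Both muscle genes that fell had small differences. PPP1R12B, a regulatory subunit of myosin phosphatase, was at 2.99 to 5.58 CPM in Belclare (median 3.95), 1.57 to 3.42 in Fur (median 2.65) and 1.5 to 3.1 in NWS (median 2.7). 15 of 18 Norwegian ewes lay below all Belclare ewes, and the log2 fold change was -0.68 ± 0.13 (SE, adjusted p = 0.00024). HRC, a calcium-binding protein of the sarcoplasmic reticulum, was at 2.57 to 9.07 CPM in Belclare (median 5.28), 2.75 to 4.54 in Fur (median 3.63) and 1.82 to 3.87 in NWS (median 2.84) with a log2 fold change of -0.75 ± 0.19 (SE, adjusted p = 0.00241). Its ranges overlapped in most ewes. MYH11, ACTA2, CNN1 and TAGLN, which also define smooth muscle, were not matched to an identifier here and are not reported.

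**Figure D2:**
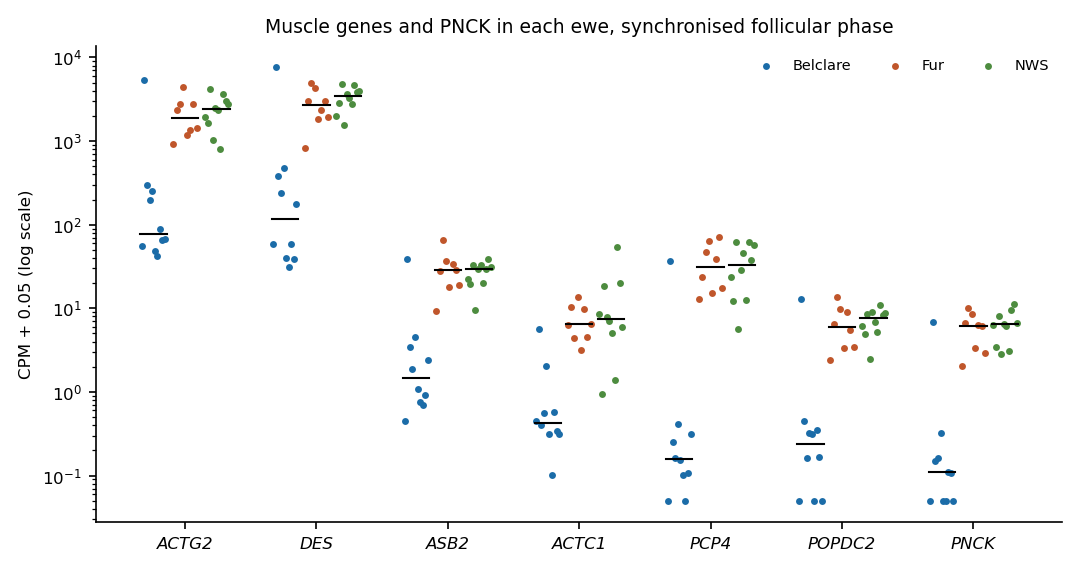
Levels of 6 muscle genes and PNCK in each of the 28 ewes, as CPM plus 0.05 on a log scale, with the median of each breed as a black line. For every gene but ACTC1, 9 of 10 Belclare ewes lie below all Fur and NWS ewes, and Belclare replicate 2 lies within or above the Norwegian range.

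When the mean log2 level of ACTG2 and DES was added to the fit as a covariate, 618 genes were called between the Norwegian breeds and Belclare in place of 2236, with 646 for Fur and 443 for NWS. The covariate nearly follows the breeds, since 9 of 10 Belclare ewes lay below every Norwegian ewe for both genes. Breed and muscle level can therefore hardly be told apart in this fit, and fewer calls alone do not show smaller differences. CPT1A had -1.70 without the covariate and -1.76 with it, but most named values did not hold in this way. Of 105 named values, 31 were rated the same with the covariate, 67 weaker and 7 reversed in sign. The counts of each gene list with this covariate and without Belclare replicate 2 stand beside its results. The part of tissue composition in those results was not tested.

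Gene names were taken from tables of the study, and these were nearly all of genes higher in Suffolk than in Fur ewes. Of 1323 named genes tested, 541 were called lower in the Norwegian breeds (40.9%) and 10 higher (0.756%), with a median log2 fold change of -0.55. Against Belclare alone, 33.9% of named genes were lower in Fur and 38.8% in NWS, where 1.13% were higher. The direction of a list of named genes is therefore not independent evidence, and a share of members near 40.9% is that of any named gene. The Fur ewes took part in that choice. So did the Belclare and NWS ewes for some names. The study lists CCER2, MICB and AQP9 among its top genes lower in these Belclare ewes than in Suffolk. It lists PNCK, POPDC2 and DES among those higher in these NWS ewes, and CD177 among those lower.

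Several genes separated the breeds completely. All 18 Norwegian ewes exceeded all 10 Belclare ewes for 153 of 14811 genes (1.03%) and lay below them for 25 (0.169%). Without Belclare replicate 2 the counts were 400 (2.70%) and 93 (0.628%). The named genes among them that fell included LAMP1, SNX33, TRAPPC12 and PLPP5. LAMP1, the main glycoprotein of the lysosomal membrane, was at 339.6 to 462 CPM in Belclare (median 389.9), 233 to 314 in Fur (median 265) and 207 to 307 in NWS (median 232). No Norwegian ewe reached a Belclare level, and the log2 fold change was -0.64 ± 0.07 (SE, adjusted p = 1.4e-07). SNX33, a sorting nexin of endocytosis, was at 45.7 to 68.3 CPM in Belclare (median 53.8), 30.8 to 39.6 in Fur (median 37.1) and 25 to 37.3 in NWS (median 32.6) and also did not overlap, with a log2 fold change of -0.65 ± 0.07 (SE, adjusted p = 7.6e-08). TRAPPC12, a subunit of a vesicle tethering complex, was at 46.5 to 72.4 CPM in Belclare (median 56), 31.1 to 41.2 in Fur (median 34.3) and 31 to 42.4 in NWS (median 38.1). It did not overlap either, and fell by 0.70 ± 0.06 (SE, adjusted p = 2.9e-08). PLPP5, a phospholipid phosphatase, was at 22.7 to 31.9 CPM in Belclare (median 26.1), 12.4 to 17.7 in Fur (median 16.5) and 17.8 to 21.1 in NWS (median 19.1). Again no Norwegian ewe reached a Belclare level, and the log2 fold change was -0.61 ± 0.06 (SE, adjusted p = 9.7e-08).

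3 more genes of smallest p overlapped in few ewes. FYCO1, an adaptor that links autophagosomes to kinesin, was at 68.3 to 108 CPM in Belclare (median 81.5), 44.7 to 65.5 in Fur (median 49.1) and 43.4 to 68.8 in NWS (median 50.5), with 17 of 18 Norwegian ewes below all Belclare ewes. Its log2 fold change was -0.71 ± 0.08 (SE, adjusted p = 1.9e-07). DYRK1B, a protein kinase of the cell cycle, was at 39.9 to 68.1 CPM in Belclare (median 55.3), 22.5 to 40.3 in Fur (median 31.8) and 21.4 to 38.2 in NWS (median 28.6), also with 17 of 18 below, and had a log2 fold change of -0.83 ± 0.10 (SE, adjusted p = 3.8e-07). SIPA1L2, which activates the GTPase of Rap proteins, was at 40.9 to 72.7 CPM in Belclare (median 57.8), 26.4 to 39.5 in Fur (median 33.1) and 26.3 to 48 in NWS (median 33.9) and had 16 of 18 below, with -0.80 ± 0.09 (SE, adjusted p = 4.8e-07). Identifiers without a name also separated the breeds. ENSOARG00000013867 was at 34.2 to 42.6 CPM in Belclare (median 37.6), 49.5 to 61.6 in Fur (median 57.1) and 51.3 to 68.4 in NWS (median 61.2). Every Norwegian ewe exceeded every Belclare ewe, and the log2 fold change was 0.61 ± 0.05 (SE, adjusted p = 9.9e-09). Without any 1 of 10 ewes its fold change fell under the threshold (0.57 to 0.63). ENSOARG00000013574 was higher by 0.85 ± 0.07 (SE, adjusted p = 2e-08), also without overlap. ENSOARG00000000703 and ENSOARG00000014217 were lower without overlap, with -1.25 ± 0.11 (SE, adjusted p = 2.9e-08) and -1.29 ± 0.13 (SE, adjusted p = 1e-07).

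**Figure D3:**
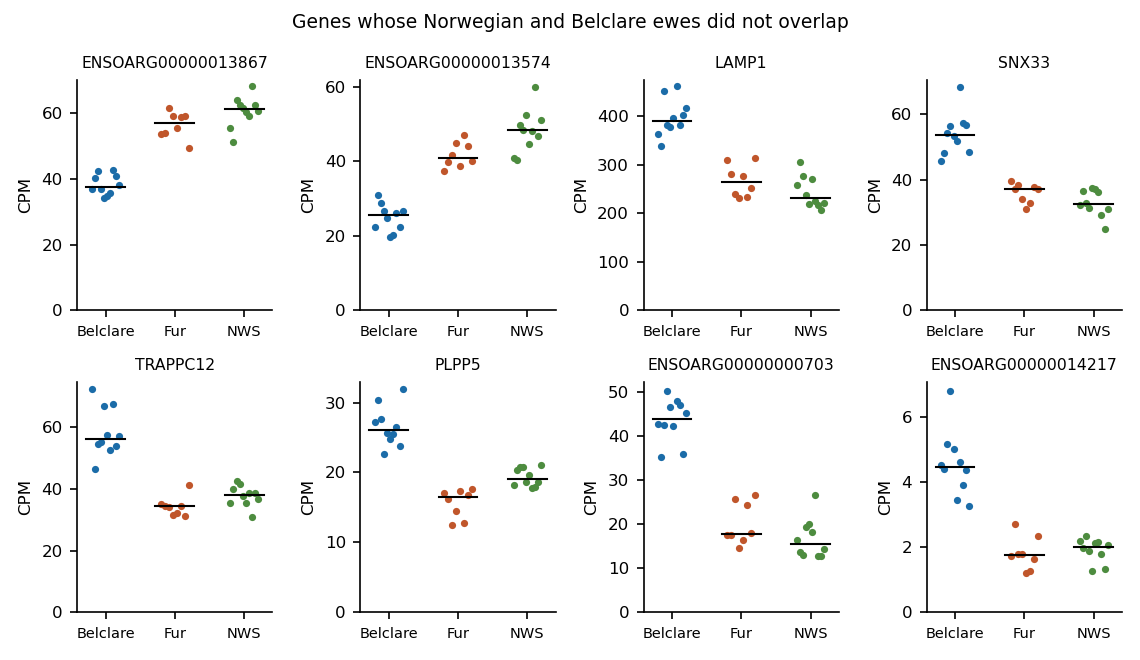
Levels in CPM, from 0, of 8 genes in each ewe of Belclare, Fur and NWS, with the median as a black line. In ENSOARG00000013867 and ENSOARG00000013574 all Norwegian ewes lie above all Belclare ewes, and in the other 6 genes all lie below.

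The lysosome degrades what cells take up and recycle. Of 36 lysosome identifiers tested, 14 fell and none rose (38.9%, near the 40.9% of all named genes), with a median of -0.50. There were 14 without Belclare replicate 2 and 6 with the muscle covariate. SGSH, the sulfamidase that degrades heparan sulfate, was at 61.1 to 131 CPM in Belclare (median 95.3), 39.5 to 72.6 in Fur (median 45.1) and 32.4 to 75 in NWS (median 41.7). 16 of 18 Norwegian ewes lay below all Belclare ewes, and the log2 fold change was -1.01 ± 0.12 (SE, adjusted p = 6.5e-07). Progranulin, GRN, was at 269.9 to 442 CPM in Belclare (median 385), 125 to 316 in Fur (median 214) and 174 to 298 in NWS (median 190.3) and fell by 0.81 ± 0.11 (SE, adjusted p = 3.4e-06). Other members called lower were ACP5 (-1.03), ARSA (-0.66), GLB1 (-0.69), IDS (-0.72), IDUA (-0.60), NPC1 (-0.80) and 3 identifiers that share the name MAN2B2. Only uniquely mapped pairs were kept, so reads that fit more than 1 of those 3 equally would not have been counted.

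The gene listed as COX-1 divided Fur from the other breeds. Its identifier, ENSOARG00000000016, is that of the mitochondrially encoded cytochrome c oxidase subunit I of the respiratory chain, not of the prostaglandin enzyme cyclooxygenase-1. Its levels were 1912 to 2913 CPM in Belclare (median 2325), 24.6 to 47.7 in Fur (median 32.3) and 1465 to 2033 in NWS (median 1632). Every Fur ewe lay far below every ewe of the other breeds, while NWS and Belclare met at the edges of their ranges. The log2 fold change was -6.14 ± 0.13 (SE, adjusted p = 1.1e-23) for Fur and -0.51 ± 0.09 (SE, adjusted p = 0.00017) for NWS against Belclare, the latter under the fold threshold. The difference between Fur and NWS was -5.63 ± 0.13 (SE, adjusted p = 5.7e-23). The pooled value of -3.32 ± 0.08 therefore averages unlike breeds. In the natural follicular phase all 10 Fur ewes were at 26.9 to 40.1 CPM, and so were 2 of 10 NWS ewes (32.3 and 36.8 CPM), while the other 8 NWS ewes were at 775.6 to 2449 CPM. In the synchronised luteal phase the 9 Fur ewes were at 28 to 39 CPM and the 8 NWS ewes at 1416 to 2310 CPM. All 20 Belclare ewes of those states were at 1903 CPM or above. Reads had been mapped with up to 2 mismatches to 1 reference genome, and the part of breed sequence differences in this gene was not tested.

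MT-ND6, a subunit of respiratory complex I and the other mitochondrially encoded gene with a name, did not follow COX-1. It was at 8.95 to 19.5 CPM in Belclare (median 14.1), 6.38 to 11.5 in Fur (median 9.09) and 5.53 to 10.7 in NWS (median 9.61). The log2 fold changes were -0.69 ± 0.15 in Fur and -0.66 ± 0.14 in NWS against Belclare, both called, and Fur and NWS differed by -0.03 ± 0.15 (SE, adjusted p = 0.988). Cyclooxygenase-1 has its own identifier under the name PTGS1, looked up after its values were seen. Mean levels of PTGS1 were 22.5 CPM in Fur, 22.4 in NWS and 24.8 in Belclare, with a pooled log2 fold change of -0.14, which was not called.

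**Figure D4:**
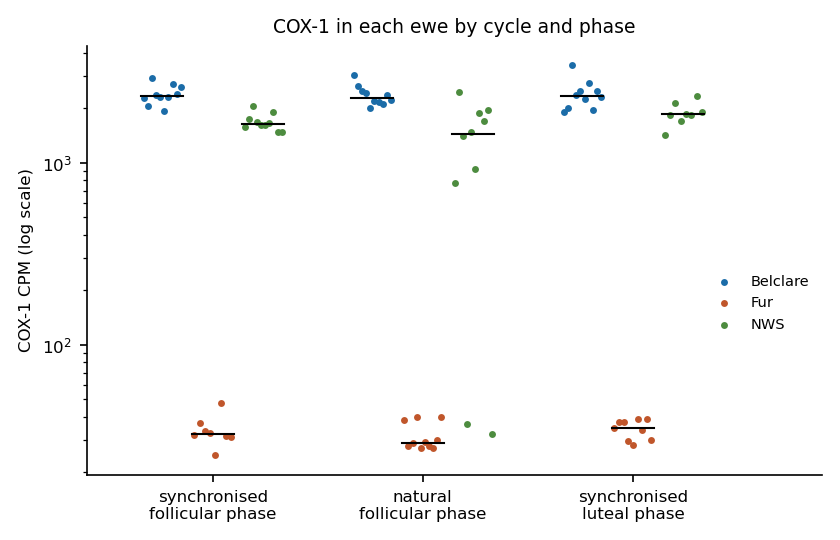
Levels of COX-1, mitochondrial cytochrome c oxidase subunit I, as CPM on a log scale in each ewe of 3 breeds and 3 states, with medians as black lines. All 27 Fur ewes and 2 NWS ewes of the natural follicular phase lie at 47.7 CPM or below, and every other ewe at 775.6 CPM or above.

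Genes of epithelia were lower in both Norwegian breeds. Of the markers chosen for columnar epithelium 6 of 6 fell, with a median of -0.93. Of those for squamous epithelium (KRT1, KRT16, DSC1, EVPLL and ZNF750) 4 of 5 fell, with a median of -1.12. Markers and lists were chosen with earlier results of these data known. Shares above that of named genes are therefore not independent evidence. The squamous markers summed to 26.2 to 165.6 CPM in Belclare, 29.9 to 70.8 in Fur and 16.4 to 107.9 in NWS. Of 26 identifiers for epithelial junctions and polarity, 20 fell and none rose (76.9%, against 40.9% of named genes), with a median log2 fold change of -0.74. In Fur 18 fell, in NWS 21, and without Belclare replicate 2 the pooled count was 23. With the muscle covariate none was called. The tight junction protein CLDN3 was at 15.7 to 86.1 CPM in Belclare (median 69.4), 16.7 to 44.6 in Fur (median 29.7) and 15.6 to 36.9 in NWS (median 27.7). 8 of 10 Belclare ewes exceeded all Norwegian ewes, and the log2 fold change was -1.10 ± 0.19 (SE, adjusted p = 6.5e-05). ELMO3, which acts in cell engulfment and migration, was at 61.2 to 212 CPM in Belclare (median 163), 61.1 to 115 in Fur (median 89.1) and 47.7 to 112 in NWS (median 81.9) and fell by 0.83 ± 0.14 (SE, adjusted p = 3.9e-05). OVOL2, a transcription factor that maintains the epithelial state, was at 3.45 to 25.8 CPM in Belclare (median 14.5), 3.91 to 10.8 in Fur (median 6.97) and 5.94 to 11.9 in NWS (median 8.02) with -0.99 ± 0.20 (SE, adjusted p = 0.00037), and with the covariate 0.44 (adjusted p = 0.256). Occludin, OCLN, was at 19.5 to 82.7 CPM in Belclare (median 60.9), 21.3 to 44.6 in Fur (median 34.8) and 23.8 to 47.7 in NWS (median 30.8) with -0.74 ± 0.16 (SE, adjusted p = 0.0005), and with the covariate 0.21 (adjusted p = 0.559). For ELMO3, OVOL2 and OCLN the lowest Belclare value was that of replicate 2. CDH1 (-0.68), CLDN4 (-0.77), CLDN7 (-0.78) and the serine protease ST14 (-0.80) were also called lower.

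Mucins and secreted proteins of the mucosa showed wide ranges. Of 16 identifiers, 9 fell (56.2%, against 40.9% of named genes) and none rose in the pooled comparison, with a median of -0.83. In Fur 4 fell (25%, against 33.9% of named genes), and in NWS 9 fell (56.2%, against 38.8%) and 1 rose. Leaving out Belclare replicate 2, 11 fell and 2 rose, and with the covariate none was called. MUC1, the membrane-bound mucin of the epithelial surface, was at 369 to 1525 CPM in Belclare (median 1170), 285 to 915 in Fur (median 554) and 166 to 804 in NWS (median 462). 7 Belclare ewes exceeded all Norwegian ewes, and the log2 fold change was -1.08 ± 0.21 (SE, adjusted p = 0.00017). MUC5B, a gel-forming mucin of cervical mucus, was at 61.5 to 310.4 CPM in Belclare (median 112), 24.9 to 80.4 in Fur (median 61.7) and 0.722 to 92.9 in NWS (median 71.1) and had -1.26 ± 0.35 (SE, adjusted p = 0.00558). The lowest NWS value of MUC5B came from replicate 9. MUC5AC, the other gel-forming mucin on the list, had a log2 fold change of -0.79 and was not called. WFDC2, a secreted protease inhibitor of reproductive epithelia, was at 294 to 1164 CPM in Belclare (median 834), 241 to 638 in Fur (median 458) and 47.2 to 434 in NWS (median 250.2). It fell by 1.21 ± 0.23 (SE, adjusted p = 0.00021). CST6, an inhibitor of cathepsins, was at 6.41 to 51.4 CPM in Belclare (median 34.8), 7.23 to 26.4 in Fur (median 9.97) and 6.14 to 18.6 in NWS (median 9.56), with -1.39 ± 0.28 (SE, adjusted p = 0.0003).

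Ion and water transporters of the epithelium, which hydrate mucus and set its pH, fell in 13 of 22 identifiers (59.1%, against 40.9% of named genes). Their median was -0.86. None rose. There were 7 lower in Fur (31.8%, against 33.9% of named genes) and 12 in NWS (54.5%, against 38.8%). The pooled count was 14 without Belclare replicate 2 and 1 with the covariate. ATP12A, the non-gastric proton pump, was at 2.76 to 22.8 CPM in Belclare (median 6.27), 0.319 to 3.53 in Fur (median 1.98) and 0.0538 to 4.65 in NWS (median 1.84). 12 Norwegian ewes lay below all Belclare ewes, and the log2 fold change was -2.29 ± 0.45 (SE, adjusted p = 0.00028). SLC12A7, a potassium chloride cotransporter, was at 34.2 to 82 CPM in Belclare (median 60.3), 26.7 to 64.8 in Fur (median 39.4) and 24.3 to 50.3 in NWS (median 28.4) with -0.77 ± 0.14 (SE, adjusted p = 0.00016). SLC4A11, a transporter of the bicarbonate family, was at 1.54 to 4.98 CPM in Belclare (median 3.47), 0.574 to 2.39 in Fur (median 1.37) and 1.2 to 3.11 in NWS (median 1.55) with -1.02 ± 0.21 (SE, adjusted p = 0.00037). Subunits of the epithelial sodium channel, SCNN1A (-0.99) and SCNN1B (-1.10), and the chloride channel CFTR (-0.67) were called lower. The water channel AQP5 (-0.64) was not called.

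Genes that import, store and oxidise lipid fell in 16 of 21 identifiers (76.2%, against 40.9% of named genes) and none rose. The median was -0.71. Fur and NWS each had 14 lower, and there were 15 without Belclare replicate 2 and 2 with the covariate. CPT1A, the enzyme that commits fatty acids to mitochondrial oxidation, was at 68 to 219 CPM in Belclare (median 134), 32.4 to 53.4 in Fur (median 37.1) and 18.5 to 109.5 in NWS (median 41.4). 17 of 18 Norwegian ewes lay below all Belclare ewes, and the log2 fold change was -1.70 ± 0.19 (SE, adjusted p = 2.2e-07). With the covariate its value was -1.76 (adjusted p = 0.00114). ABCA1, the cholesterol exporter, was at 54.7 to 148 CPM in Belclare (median 107), 18.7 to 61.9 in Fur (median 47.8) and 25.4 to 96.5 in NWS (median 42.8) with -1.21 ± 0.20 (SE, adjusted p = 2.7e-05). CYP27A1, a sterol hydroxylase, was at 98.8 to 198 CPM in Belclare (median 152), 59.5 to 119.7 in Fur (median 82.5) and 69.7 to 139.7 in NWS (median 92.8) with -0.71 ± 0.11 (SE, adjusted p = 1.6e-05). For the last 2, 14 of 18 Norwegian ewes lay below all Belclare ewes.

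Receptors and enzymes of steroid, prostaglandin and oxytocin signalling fell in 8 of 14 identifiers (57.1%, against 40.9% of named genes) and none rose. The median was -0.95. In each Norwegian breed alone 7 fell, and the pooled count without Belclare replicate 2 was 8. None was called with the covariate. FKBP5, a cochaperone of steroid receptors that glucocorticoids and progestagens induce, was at 70 to 226 CPM in Belclare (median 147), 41.5 to 114 in Fur (median 54.5) and 47.7 to 110 in NWS (median 75.7). 8 Belclare ewes exceeded all Norwegian ewes, and the log2 fold change was -1.11 ± 0.16 (SE, adjusted p = 5.2e-06). The oestrogen receptor beta, ESR2, was at 2.76 to 10.1 CPM in Belclare (median 6.5), 0.585 to 4.2 in Fur (median 1.68) and 0.23 to 5.29 in NWS (median 1.17). It fell by 1.74 ± 0.36 (SE, adjusted p = 0.00048), with 13 of 18 Norwegian ewes below all Belclare ewes. ESRRG, an orphan receptor related to oestrogen receptors, was at 2.44 to 5.73 CPM in Belclare (median 3.68), 1.41 to 2.85 in Fur (median 1.98) and 1.02 to 3.23 in NWS (median 1.97), with -0.97 ± 0.16 (SE, adjusted p = 4.2e-05). VDR, the vitamin D receptor, was at 15.1 to 42.4 CPM in Belclare (median 25.8), 10.6 to 17.7 in Fur (median 15.2) and 6.38 to 21.1 in NWS (median 11.4) with -0.94 ± 0.17 (SE, adjusted p = 9.7e-05). The oestrogen target GREB1 (-1.13) was called lower, and the oxytocin receptor OXTR (-0.35) was not called.

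Of 6 identifiers of retinoid carriers and enzymes, 2 fell (33.3%, against 40.9% of named genes), with a median of -0.39 (-0.55 for named genes). None fell in Fur and 1 in NWS. The pooled count was 2 without Belclare replicate 2 and none with the covariate. RBP2, a cellular retinol-binding protein of epithelia, was at 1.27 to 32.2 CPM in Belclare (median 8.81), 0.16 to 21.6 in Fur (median 1.86) and 0.162 to 9.14 in NWS (median 3.15) with -1.61 ± 0.54 (SE, adjusted p = 0.0191), and with the covariate 1.004 (adjusted p = 0.479). The plasma carrier RBP4 had -0.28 ± 0.18 (SE, adjusted p = 0.216) and the retinol receptor STRA6 had 0.07 ± 0.30 (SE, adjusted p = 0.872). Neither was called, and their ranges overlapped in nearly all ewes.

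Interferon-induced genes fell in 13 of 27 identifiers (48.1%, against 40.9% of named genes) and none rose. The median was -0.61 (-0.55 for named genes). Fur had 5 lower (18.5%, against 33.9% of named genes) and NWS 13 (48.1%, against 38.8%). The pooled comparison had 18 without Belclare replicate 2 and 1 with the covariate. Belclare replicate 2 had the lowest Belclare level of 20 of the 27. TRIM25, a ubiquitin ligase of RNA sensing, was at 31.6 to 56.3 CPM in Belclare (median 46.2), 16.1 to 36 in Fur (median 26.3) and 23.5 to 36.6 in NWS (median 28.3). 13 Norwegian ewes lay below all Belclare ewes, and the log2 fold change was -0.70 ± 0.10 (SE, adjusted p = 8e-06). DHX58, a helicase of RNA sensing, was at 18.5 to 72 CPM in Belclare (median 32.3), 19 to 35.1 in Fur (median 21.9) and 13.8 to 31.7 in NWS (median 19.8) with -0.76 ± 0.16 (SE, adjusted p = 0.00061). XAF1, an interferon-induced promoter of apoptosis, was at 14.3 to 48.9 CPM in Belclare (median 31.6), 11.5 to 27.9 in Fur (median 15.9) and 10.7 to 26.5 in NWS (median 14.9) with -0.84 ± 0.18 (SE, adjusted p = 0.00068). TMEM140 was at 1.6 to 6.62 CPM in Belclare (median 3.88), 0.866 to 4.13 in Fur (median 2.15) and 1.47 to 3.35 in NWS (median 1.86) with -0.90 ± 0.21 (SE, adjusted p = 0.00119). The antiviral genes MX1 (-0.86), OAS1 (-1.02) and ISG15 (-0.74) were called lower. 3 identifiers share the name IFITM3, none of which was called.

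Of 29 lymphocyte identifiers 6 fell (20.7%, against 40.9% of named genes) and none rose, with a median of -0.28. The counts were 3 in Fur and 7 in NWS, 7 without Belclare replicate 2 and 1 with the covariate. FLT3, the cytokine receptor of lymphoid and dendritic progenitors, was at 0.349 to 9.91 CPM in Belclare (median 7.18), 0.724 to 1.38 in Fur (median 0.872) and 0.0602 to 1.21 in NWS (median 0.654). Belclare ewes spread over the whole range, 6 of 10 exceeding all Norwegian ewes, and the log2 fold change was -2.70 ± 0.40 (SE, adjusted p = 8.4e-06). With the covariate it was -3.10 (adjusted p = 0.00114). IKZF3, a transcription factor of B cells, was at 2.01 to 10.5 CPM in Belclare (median 5.84), 1.15 to 4.34 in Fur (median 3.16) and 1.37 to 4.63 in NWS (median 2.88) with -1.06 ± 0.24 (SE, adjusted p = 0.00083). JAK3, the kinase of cytokine receptors that share the common gamma chain, was at 16.5 to 112 CPM in Belclare (median 57.8), 14.3 to 87.2 in Fur (median 30.3) and 11.6 to 40.9 in NWS (median 19.2) with -1.12 ± 0.28 (SE, adjusted p = 0.0022), and with the covariate 0.21 (adjusted p = 0.797). IGHE, the heavy chain of immunoglobulin E, was at 0.521 to 7.59 CPM in Belclare (median 1.94), 0.178 to 1.57 in Fur (median 1.11) and 0 to 1.74 in NWS (median 0.318) with -1.75 ± 0.43 (SE, adjusted p = 0.00209). CD27 (-0.11), IKZF1 (0.02) and PDCD1 (0.15) were not called. The summed level of B and plasma cell markers was 382 to 5440 CPM in Belclare, 195.8 to 8645 in Fur and 802.4 to 8657 in NWS, without separation.

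Among 18 neutrophil and macrophage identifiers, 4 fell (22.2%, against 40.9% of named genes) and 1 rose (5.56%), with a median of -0.47. Fur had 3 lower and 1 higher, and NWS 4 lower. Without Belclare replicate 2, 5 fell and none rose, and with the covariate 2 fell and none rose. CD177, a surface glycoprotein of neutrophils, was at 0.742 to 119 CPM in Belclare (median 12.5), 0.828 to 24.8 in Fur (median 2.55) and 0 to 4.85 in NWS (median 2.82). Its log2 fold change was -2.95 ± 0.60 (SE, adjusted p = 0.00039), with wide overlap between breeds, and 0.87 (adjusted p = 0.629) with the covariate. NFAM1, an immunoreceptor adaptor of myeloid cells, was at 4.1 to 10.4 CPM in Belclare (median 7.29), 3.07 to 5.65 in Fur (median 4.3) and 1.81 to 5.74 in NWS (median 4.05) with -0.87 ± 0.18 (SE, adjusted p = 0.00055). The interleukin-6 receptor gene IL6R was at 13.5 to 32.6 CPM in Belclare (median 23.5), 9.22 to 21.8 in Fur (median 12.9) and 9.75 to 34.7 in NWS (median 13.4) with -0.62 ± 0.18 (SE, adjusted p = 0.00741). ITGB2, the integrin chain that leukocytes share, was at 14.9 to 53.2 CPM in Belclare (median 25.4), 11.4 to 23.6 in Fur (median 18.6) and 7.34 to 33.3 in NWS (median 17.4) with -0.63 ± 0.21 (SE, adjusted p = 0.0174). The calls of IL6R (-0.76 to -0.58) and ITGB2 (-0.73 to -0.52) were lost, the first without Belclare replicate 5 or 6 or Fur replicate 8 and the second without Belclare replicate 1 or 10. The member that rose was AQP9, a water and glycerol channel, at 0.212 to 1.99 CPM in Belclare (median 0.974), 0.326 to 108 in Fur (median 1.16) and 0.181 to 5.68 in NWS (median 0.776). Its log2 fold change of 2.10 ± 0.82 (SE, adjusted p = 0.0406) rested on Fur replicate 3 at 108 CPM, and without that ewe it was 0.47 (adjusted p = 0.456). It was also lost without any 1 of 10 other ewes.

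Acute phase, complement and coagulation genes fell in 5 of 20 identifiers (25.0%, against 40.9% of named genes) and none rose. The median was -0.47 (-0.55 for named genes). There were 7 lower in Fur, 3 in NWS, 7 without Belclare replicate 2 and 3 with the covariate. An identifier of SAA1, serum amyloid A, separated the breeds completely. ENSOARG00000009865 was at 2.87 to 22.5 CPM in Belclare (median 9.84), 0.172 to 1.56 in Fur (median 0.409) and 0.115 to 2.43 in NWS (median 1.06). The lowest Belclare ewe was above the highest Norwegian ewe, and the log2 fold change was -3.62 ± 0.38 (SE, adjusted p = 1.2e-07). A second identifier named SAA1, ENSOARG00000009847, had -0.97 ± 0.44 and was not called. Only uniquely mapped pairs were kept, so reads that fit both identifiers equally would not have been counted, and how alike their sequences are was not tested. VWF, the von Willebrand factor of endothelium, was at 622 to 1047 CPM in Belclare (median 909.9), 454 to 649 in Fur (median 559) and 292 to 684 in NWS (median 465). 15 of 18 Norwegian ewes lay below all Belclare ewes, and the log2 fold change was -0.77 ± 0.11 (SE, adjusted p = 6.4e-06). The thyroxine carrier TTR was at 0.636 to 2.17 CPM in Belclare (median 1.27), 0.146 to 0.597 in Fur (median 0.484) and 0.0538 to 3.23 in NWS (median 0.28) with -1.32 ± 0.40 (SE, adjusted p = 0.00908). SERPINF2, the plasmin inhibitor, was at 0.794 to 8.3 CPM in Belclare (median 3.49), 0.287 to 2.12 in Fur (median 0.696) and 0.442 to 15.1 in NWS (median 1.09) with -1.37 ± 0.46 (SE, adjusted p = 0.019), lost without Belclare replicate 7 (-1.97 to -1.19).

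Matrix and fibroblast genes fell in 10 of 38 identifiers (26.3%, against 40.9% of named genes) and none rose. The median was -0.47 (-0.55 for named genes). Fur had 11 lower and NWS 8. Without Belclare replicate 2, 9 fell and 1 rose, and with the covariate 5 fell. COMP, a matrix glycoprotein that binds collagen, was at 1.99 to 6.25 CPM in Belclare (median 4.26), 0.975 to 1.53 in Fur (median 1.27) and 1.02 to 7.62 in NWS (median 1.65). 14 Norwegian ewes lay below all Belclare ewes and 1 above them, and the log2 fold change was -1.37 ± 0.25 (SE, adjusted p = 0.00011). The proteases ADAMTS7 and ADAMTS14 were called lower, with -0.70 ± 0.15 (SE, adjusted p = 0.00086) and -0.93 ± 0.22 (SE, adjusted p = 0.00165). The latter was 0.019 with the covariate, not called. ADAMTS7 was at 41 to 75.8 CPM in Belclare (median 47.7), 18.2 to 47.8 in Fur (median 31.4) and 22.3 to 68.2 in NWS (median 31.4). ADAMTS14, which trims procollagen, was at 3.76 to 14.3 CPM in Belclare (median 8.62), 2.22 to 6.68 in Fur (median 3.64) and 2.99 to 12 in NWS (median 4.86). MXRA8, a cell adhesion protein, was at 44.5 to 154 CPM in Belclare (median 80.5), 30.5 to 65.3 in Fur (median 46.4) and 28.9 to 125 in NWS (median 40.5) with -0.88 ± 0.22 (SE, adjusted p = 0.00269). The fibroblast markers PDGFRB (-0.54), FAP (-0.15) and MMP2 (-0.48) were not called.

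Wnt signalling had 4 lower of 15 identifiers (26.7%, against 40.9% of named genes), with a median of -0.42 (-0.55 for named genes). There were 4 lower in Fur, 1 in NWS, 5 without Belclare replicate 2 and 1 with the covariate. The ligand WNT5A was at 37.5 to 161 CPM in Belclare (median 83.2), 15.5 to 78.4 in Fur (median 47.3) and 25.9 to 170.4 in NWS (median 60.3) with -0.69 ± 0.27 (SE, adjusted p = 0.0413). The receptor FZD5 was at 2.39 to 9.99 CPM in Belclare (median 6.36), 1.9 to 6.36 in Fur (median 3.52) and 1.62 to 7.22 in NWS (median 3.27) with -0.83 ± 0.21 (SE, adjusted p = 0.00273), and with the covariate 0.15 (adjusted p = 0.819). NOTUM, a secreted inhibitor that removes the lipid from Wnt proteins, was at 1.14 to 5.58 CPM in Belclare (median 3.77), 0.16 to 3 in Fur (median 1.38) and 0.717 to 5.33 in NWS (median 1.39) with -1.09 ± 0.34 (SE, adjusted p = 0.0113). WISP1, a target of the pathway, was at 1.76 to 12.7 CPM in Belclare (median 5.51), 0.926 to 7.22 in Fur (median 3.59) and 1.72 to 9.46 in NWS (median 3.52) with -0.79 ± 0.29 (SE, adjusted p = 0.0328). These 4 overlapped between breeds in most ewes. The calls of WNT5A (-0.86 to -0.58) and WISP1 (-0.92 to -0.61) were lost without any 1 of 11 and any 1 of 3 ewes. The feedback target AXIN2 (0.05) was not called.

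In Notch signalling 4 of 8 identifiers fell (50%, against 40.9% of named genes) and none rose, with a median of -0.57. There were 4 lower in Fur, 3 in NWS, 3 without Belclare replicate 2 and 2 with the covariate. The receptor NOTCH1 was at 47.7 to 86.5 CPM in Belclare (median 62.2), 33.5 to 49 in Fur (median 39.4) and 29.2 to 48.5 in NWS (median 37.3). 16 of 18 Norwegian ewes lay below all Belclare ewes, and the log2 fold change was -0.73 ± 0.09 (SE, adjusted p = 7.7e-07). DLL4, its ligand in endothelium, was at 13.8 to 59.1 CPM in Belclare (median 26.4), 13.3 to 27.3 in Fur (median 17.1) and 10.3 to 19.2 in NWS (median 13.2) with -0.95 ± 0.18 (SE, adjusted p = 0.00018). The feedback regulator NRARP was at 1.7 to 3.75 CPM in Belclare (median 2.05), 0.688 to 1.9 in Fur (median 1.34) and 0.539 to 2.32 in NWS (median 1.21), with -0.72 ± 0.21 (SE, adjusted p = 0.00745). DTX1, a ubiquitin ligase that regulates Notch, was at 2.39 to 8 CPM in Belclare (median 4.81), 1.67 to 4.74 in Fur (median 3.03) and 2.75 to 4.37 in NWS (median 3.39), with -0.63 ± 0.19 (SE, adjusted p = 0.01). The call of DTX1 was lost without any 1 of 4 ewes (-0.70 to -0.52). Endothelial markers as a group (VWF, ROBO4, CLEC1A, STAB1 and DLL4) summed to 705.9 to 1218 CPM in Belclare, 542.3 to 746 in Fur and 374.2 to 774.5 in NWS.

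**Figure D5:**
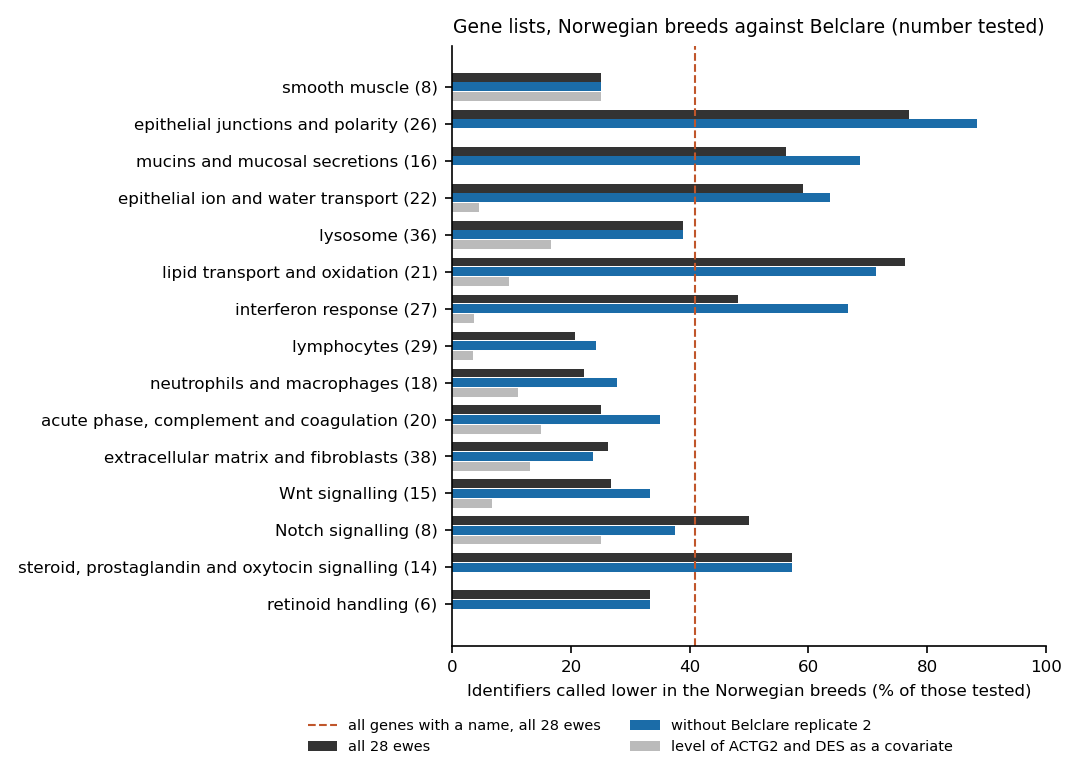
Share of tested identifiers called lower in the Norwegian breeds than in Belclare, in percent, for each gene list but the mitochondrial one (2 of 2 lower, not drawn), with all 28 ewes (black), without Belclare replicate 2 (blue) and with the level of ACTG2 and DES as a covariate (grey). The dashed line is the share of all named genes with 28 ewes (40.9%). Epithelial junctions (76.9%) and lipid genes (76.2%) lie farthest above it among the lists drawn, and with the covariate the share is smaller for every list drawn but smooth muscle. The lists were chosen with earlier results of these data known.

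Few named genes rose besides those of muscle. CCER2 and MICB were among the study's top genes lower in these Belclare ewes than in Suffolk, so their rise over Belclare is not independent evidence. CCER2 was at 0.794 to 5.81 CPM in Belclare (median 1.53), 5.16 to 9.73 in Fur (median 6.19) and 2.75 to 6.67 in NWS (median 4.41). 7 of 10 Belclare ewes lay below all Norwegian ewes, and the log2 fold change was 1.31 ± 0.24 (SE, adjusted p = 0.00013), called in Fur (1.59 ± 0.28) and NWS (1.03 ± 0.26) alone. THPO, thrombopoietin, was at 0.351 to 1.22 CPM in Belclare (median 0.544), 0.516 to 2.44 in Fur (median 1.1) and 0.481 to 1.88 in NWS (median 1.29) with 0.96 ± 0.26 (SE, adjusted p = 0.005). MICB, a stress-induced ligand of natural killer cells, was at 2.34 to 13.8 CPM in Belclare (median 7.62), 8.44 to 11.3 in Fur (median 10.7) and 9.1 to 23.6 in NWS (median 13.9). It rose by 0.62 ± 0.21 (SE, adjusted p = 0.0172), and the call was lost without any 1 of 8 ewes (0.52 to 0.72). In NWS alone the value for MICB was 0.87 ± 0.23 (SE, adjusted p = 0.00413), and in Fur it was 0.38 ± 0.24 (SE, adjusted p = 0.253), which was not called. BAMBI, a decoy receptor of the transforming growth factor beta family, was named by the NWS comparison. It was at 6.28 to 19.8 CPM in Belclare (median 13.8), 6.91 to 21.6 in Fur (median 14.4) and 11.9 to 54.1 in NWS (median 23.7), with 1.06 ± 0.28 (SE, adjusted p = 0.00362) in NWS and 0.09 ± 0.29 (SE, adjusted p = 0.847) in Fur. The difference between Fur and NWS was -0.98 ± 0.30 (SE, adjusted p = 0.481) and did not pass the test.

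Between Fur and NWS, 3 genes were called higher (0.0203%) and 4 lower (0.027%) in Fur, and 4 of the 7 had a name. Besides COX-1 these were HHLA2, TRPM3 and ACSL6. HHLA2, a T cell coregulator of the B7 family, was at 1.91 to 6.79 CPM in Belclare (median 2.79), 1.19 to 3.91 in Fur (median 1.75) and 3.22 to 7.51 in NWS (median 5.49). The Belclare median lay between those of Fur and NWS, and the difference of Fur from NWS was -1.48 ± 0.27 (SE, adjusted p = 0.0371). The cation channel TRPM3 was at 1.08 to 3.75 CPM in Belclare (median 1.73), 0.39 to 1.32 in Fur (median 0.711) and 1.21 to 3.67 in NWS (median 2.27), with a difference of -1.47 ± 0.27 (SE, adjusted p = 0.0371). ACSL6, which activates long-chain fatty acids, was at 0.533 to 2.63 CPM in Belclare (median 0.957), 0.0487 to 0.585 in Fur (median 0.507) and 0.75 to 3.52 in NWS (median 1.46) and had -1.98 ± 0.39 (SE, adjusted p = 0.0489). Leaving out 1 ewe ended the call of HHLA2 for 11 ewes (-1.69 to -1.40), of TRPM3 for 17 (-1.58 to -1.34) and of ACSL6 for 25 (-2.07 to -1.76), and that of COX-1 for none (-5.69 to -5.55).

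The comparison was set beside that in other states of the cycle, with other ewes. The difference of Norwegian breeds from Belclare changed between synchronised and natural follicular phase in 38 genes (0.257%), and 2329 had an unadjusted p under 0.05. Leaving out 1 synchronised ewe moved this count to between 4 (Belclare replicate 10) and 193 (NWS replicate 2), and no natural ewe was left out. The named genes of smallest p were ARSD, HBP1 and MAN2B2, each lower relative to Belclare in the synchronised phase. ARSD, an arylsulfatase, had medians of 11.9 CPM in Fur, 9.97 in NWS and 23.9 in Belclare when synchronised. In natural cycles they were 23, 31.5 and 20.3 CPM, and the difference of differences was -1.52 ± 0.33 (SE, adjusted p = 0.0292). The transcriptional repressor HBP1 had medians of 63.1, 57.7 and 108 CPM when synchronised and 121, 84.5 and 83.2 CPM in natural cycles, in the order Fur, NWS and Belclare, with -0.88 ± 0.20 (SE, adjusted p = 0.034). The mannosidase identifier MAN2B2 named here, ENSOARG00000010586, was at 0.794 to 7.69 CPM in Belclare (median 3.03), 0.292 to 2.72 in Fur (median 1.06) and 0.762 to 3.03 in NWS (median 1.48), and its difference of differences was -1.87 ± 0.40 (SE, adjusted p = 0.0261). Without Belclare replicate 10 none of these 3 calls held, and without Belclare replicate 4 that of ARSD was also lost. The call of HBP1 was lost without any 1 of 6 ewes (-0.95 to -0.84). The muscle genes ACTG2 and DES did not pass this test, with -0.38 ± 0.84 (SE, adjusted p = 0.864) and -0.32 ± 0.85 (SE, adjusted p = 0.887), while HRC did, with -1.22 ± 0.28 (SE, adjusted p = 0.0348).

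Between follicular and luteal phase of the synchronised cycle the difference changed in 246 genes (1.66%), 93 of them higher and 153 lower in the follicular phase. Leaving out 1 follicular ewe gave 133 (Belclare replicate 7), 147 (Belclare replicate 10), 392 (NWS replicate 2) and 402 (Belclare replicate 2) at the extremes. No luteal ewe was left out. Without Belclare replicate 2 the balance turned, with 222 higher and 180 lower. ALOX12, a lipoxygenase of arachidonic acid, had follicular medians of 69.7 CPM in Fur, 120 in NWS and 120.5 in Belclare. Luteal medians were 14.7, 32.3 and 134 CPM. The Norwegian medians lay at or below that of Belclare in the follicular phase and far below it in the luteal phase, with a difference of differences of 1.82 ± 0.46 (SE, adjusted p = 0.025). PDZK1IP1, a small membrane protein of epithelia, had luteal medians of 17.7, 35.1 and 139 CPM against follicular medians of 28.9, 24.8 and 40.6 CPM, with 2.07 ± 0.52 (SE, adjusted p = 0.0232). One of 2 identifiers named IGHG3, an immunoglobulin heavy chain, reached 472 to 51990 CPM (median 1941) in luteal Belclare ewes. It had 3.37 ± 0.93 (SE, adjusted p = 0.0386). The call was lost without follicular Belclare replicate 6, 7 or 10 or Fur replicate 1 (2.74 to 3.73 over all follicular ewes left out). The part of single luteal ewes in it was not tested.

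Cathepsin K, CTSK, a collagen-degrading protease, changed the other way. Its follicular medians were 108 CPM in Fur, 97.5 in NWS and 123 in Belclare, and its luteal medians 128, 123 and 75 CPM. The difference of differences was -1.24 ± 0.22 (SE, adjusted p = 0.00155). KLF11, a transcription factor induced by transforming growth factor beta, had follicular medians of 7.52, 8.76 and 21.6 CPM and luteal medians of 12.5, 19.7 and 12 CPM, with -1.69 ± 0.30 (SE, adjusted p = 0.00155). TMEM86A, which cleaves plasmalogen lipids, had -1.06 ± 0.21 (SE, adjusted p = 0.00446), from follicular medians of 5.1, 4.2 and 7.57 CPM and luteal medians of 6.75, 7.28 and 6.11 CPM. In all 3 genes the Belclare median was the highest of the breeds in the follicular phase and the lowest in the luteal phase.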

How the data were processed

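Cervical polyA RNA of 28 ewes (10 Belclare, 8 Fur and 10 NWS at the synchronised follicular phase) was analysed, with 30 natural follicular and 27 synchronised luteal ewes of these breeds for the comparisons between states. The authors made stranded TruSeq libraries, trimmed reads, mapped them to Oar_v3.1 with STAR 2.6.1b allowing 2 mismatches and keeping unique pairs, and counted protein coding genes of Ensembl release 95 with featureCounts (Subread 1.6.3). Whether counting used strand is not given in the sources used here. The deposited files hold raw counts of 27054 identifiers per sample, with no normalization. 1 further sample of the series, whose title and other labels differ, was left out.

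Genes with at least 1 CPM in 10 of the 39 synchronised follicular libraries of all breeds were tested (14811). The quasi-likelihood F test of edgeR 4.0.16 in R 4.3.3 was fitted to the 28 libraries with TMM scaling and 1 coefficient per breed. The pooled contrast was the mean of Fur and NWS minus Belclare. P-values were adjusted by Benjamini-Hochberg over all genes tested. DEGs passed 0.05 after adjustment with a fitted fold change beyond 1.5 in either direction. Interactions were fitted over 58 and 55 libraries. Tested on simulated data of 14811 genes, the pooled comparison called 85% of 2-fold and 97% of 4-fold changes among 200 changed genes, with 4 unchanged genes called. The libraries of a breed differed beyond sampling noise in all 118 pairs.

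Members, lists and tests were chosen with earlier results of these data known. Names of 1352 identifiers came from tables of the study, whose comparisons with Suffolk were not otherwise used. Named in the text are, among called genes with a name, the 10 of smallest p in each direction of the pooled contrast, 5 for each breed against Belclare and for Fur against NWS, and 3 for each interaction. Added are up to 4 members per list, all named muscle and mitochondrial members, and 4 identifiers without a name. Some genes that this rule names are not reported here. Other list members named with a value were chosen after their values were seen. Alternatives were DESeq2 1.42.0, other filters, thresholds and groups in the fit, a replicate block, each ewe left out, and a covariate of ACTG2 and DES (mean log2 CPM, prior count 2) chosen after seeing the data.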

Additional observations from a re-analysis of the deposited data

Results flagged for a closer look

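For each of 94 genes named here, levels in each breed were searched for a ewe whose gap to the nearest ewe of her breed was a large part of the whole range. Of 282 groups, 42 (14.9%) held such a ewe, where chance gives about 5% (1 in 20). The ranges in brackets are those of the other ewes of the breed.

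Belclare replicate 2 accounted for 12 of the 42. Belclare replicate 2 was the highest ewe of her breed for ACTG2 at 5440 CPM (41.8 to 301), ASB2 at 38.6 CPM (0.397 to 4.48), DES at 7650 CPM (31 to 474) and PCP4 at 36.6 CPM (0 to 0.366). The same held for PNCK at 6.73 CPM (0 to 0.274) and POPDC2 at 12.9 CPM (0 to 0.399). Belclare replicate 2 was the lowest ewe of her breed for ELMO3 at 61.2 CPM (128 to 212), FZD5 at 2.39 CPM (5.08 to 9.99), OCLN at 19.5 CPM (45.7 to 82.7) and OVOL2 at 3.45 CPM (11.7 to 25.8). The same held for SIPA1L2 at 40.9 CPM (54.2 to 72.7) and WFDC2 at 294 CPM (567 to 1160).

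NWS replicate 9, the ewe farthest along the first component, accounted for 9. NWS replicate 9 was the highest ewe of her breed for ADAMTS7 at 68.2 CPM (22.3 to 40.4), IL6R at 34.7 CPM (9.74 to 16.9) and SERPINF2 at 15.1 CPM (0.441 to 2.33). NWS replicate 9 was the lowest ewe of her breed for CD177 at 0 CPM (1.18 to 4.85), ELMO3 at 47.7 CPM (73.1 to 112), FLT3 at 0.0602 CPM (0.375 to 1.21) and MUC1 at 166 CPM (399 to 804). The same held for MUC5B at 0.722 CPM (34.6 to 92.9) and WFDC2 at 47.2 CPM (180 to 434).

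NWS replicate 2 and Fur replicate 3 accounted for 5 each. NWS replicate 2 was the highest ewe of her breed for ABCA1 at 96.5 CPM (25.4 to 51.7), CTSK at 151 CPM (81.9 to 106), GRN at 298 CPM (173 to 217) and IGHG3 at 6260 CPM (580 to 1810). The same held for SGSH at 75 CPM (32.3 to 48.6). Fur replicate 3 was the highest ewe of her breed for AQP9 at 108 CPM (0.326 to 5.65), CCER2 at 9.73 CPM (5.16 to 6.87) and DLL4 at 27.3 CPM (13.3 to 18.1). Fur replicate 3 was the lowest ewe of her breed for ARSD at 5.42 CPM (11 to 16.1) and STRA6 at 28.9 CPM (62.8 to 120).

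Of the other ewes, 10 had 1 or 2 such levels each. Belclare replicate 1 was the lowest ewe of her breed for COMP at 1.99 CPM (3.76 to 6.25). Belclare replicate 9 was the highest ewe of her breed for NRARP at 3.75 CPM (1.7 to 2.51). Fur replicate 1 was the highest ewe of her breed for DHX58 at 35.1 CPM (19 to 24.2). Fur replicate 2 was the lowest ewe of her breed for IGHE at 0.178 CPM (0.747 to 1.57). Fur replicate 4 was the lowest ewe of her breed for CLDN3 at 16.7 CPM (28.1 to 44.6) and OCLN at 21.2 CPM (32.1 to 44.6). Fur replicate 5 was the highest ewe of her breed for SGSH at 72.6 CPM (39.5 to 52.1). Fur replicate 6 was the lowest ewe of her breed for TTR at 0.146 CPM (0.452 to 0.597). Fur replicate 8 was the highest ewe of her breed for TRAPPC12 at 41.2 CPM (31.1 to 35). NWS replicate 4 was the lowest ewe of her breed for ASB2 at 9.49 CPM (19.4 to 38.4). NWS replicate 7 was the lowest ewe of her breed for RBP2 at 0.162 CPM (1.86 to 9.14).

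Differences between breeds or states that passed the test of the difference itself (edgeR) are given as log2 differences ± SE. Fur differed from NWS in ACSL6 by -1.98 ± 0.39 (adjusted p = 0.0489), COX-1 by -5.63 ± 0.13 (adjusted p = 5.68e-23), HHLA2 by -1.48 ± 0.27 (adjusted p = 0.0371) and TRPM3 by -1.47 ± 0.27 (adjusted p = 0.0371). The difference of the Norwegian breeds from Belclare in the synchronised follicular phase departed from that in the natural follicular phase in ARSD by -1.52 ± 0.33 (adjusted p = 0.0292), HBP1 by -0.88 ± 0.20 (adjusted p = 0.034), HRC by -1.22 ± 0.28 (adjusted p = 0.0348), KLF11 by -1.43 ± 0.35 (adjusted p = 0.0428) and MAN2B2 by -1.87 ± 0.40 (adjusted p = 0.0261). It departed from that in the synchronised luteal phase in ALOX12 by 1.82 ± 0.46 (adjusted p = 0.025), ATP12A by -3.26 ± 0.66 (adjusted p = 0.00625), COMP by -1.46 ± 0.33 (adjusted p = 0.015), CPT1A by -1.47 ± 0.31 (adjusted p = 0.00969) and CTSK by -1.24 ± 0.22 (adjusted p = 0.00155). It also departed there in HBP1 by -0.64 ± 0.17 (adjusted p = 0.0314), HRC by -1.41 ± 0.32 (adjusted p = 0.015), IGHG3 by 3.37 ± 0.93 (adjusted p = 0.0386), KLF11 by -1.69 ± 0.30 (adjusted p = 0.00155) and MAN2B2 by -1.84 ± 0.45 (adjusted p = 0.0205). It also departed there in MICB by -1.09 ± 0.32 (adjusted p = 0.0484), MT-ND6 by -0.86 ± 0.23 (adjusted p = 0.0317), MXRA8 by -1.13 ± 0.32 (adjusted p = 0.0419), PDZK1IP1 by 2.07 ± 0.52 (adjusted p = 0.0232) and SGSH by -0.65 ± 0.15 (adjusted p = 0.0172). It also departed there in TMEM140 by -1.10 ± 0.28 (adjusted p = 0.0271), TMEM86A by -1.06 ± 0.21 (adjusted p = 0.00446) and TTR by -3.12 ± 0.80 (adjusted p = 0.0263).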

How the results depend on the processing

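DEG counts are given here for the Norwegian breeds (2236), Fur (1510) and NWS (2533) against Belclare, Fur against NWS (7) and the interactions with natural follicular (38) and luteal phase (246). A test against the fold threshold itself (glmTreat) called 170, 68, 143, 1, 1 and 4. With no fold threshold the first 3 were 6165, 3985 and 5899, and the luteal interaction 414. With the covariate of ACTG2 and DES, chosen after seeing the data, the first 3 were 618, 646 and 443. DESeq2's Wald test called 17 between Fur and NWS and 143 and 393 for the interactions. A fit of Fur and NWS alone called 1. DESeq2's size factors called 46.6% of DEGs higher, against 50.9%. Over single synchronised follicular ewes left out, the counts ran from 1959 to 3116, 1157 to 2325, 2240 to 3483, 1 to 7, 4 to 193 and 133 to 402. Natural and luteal ewes were not left out. Fur against Belclare exceeded 1.5 times its count only without Belclare replicate 2. The first 2 components on the 500 genes of largest variance held 35.3% and 17%.

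Replicate numbers did not pair the ewes: 26 same-numbered pairs across breeds correlated at -0.4 to 0.24, and 0 of 28 ewes correlated best with their own number. With a replicate block the counts were 2494, 1619, 2752, 2, 31 and 146, so Fur against NWS and the luteal interaction moved by over 1.5 times.

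With the covariate, members called lower fell to 0 for junctions, mucins, steroid and retinoid genes, 1 for transport, interferon, lymphocyte, Wnt and mitochondrial genes, 2 for lipid, neutrophil and Notch genes, 3 for acute phase, 5 for matrix and 6 for lysosome genes, and muscle genes called higher to 1. AQP9, the neutrophil gene called higher, was 0 of its list with no filter, with DESeq2, with the covariate and without Belclare replicate 2. A matrix gene was called higher (1) with DESeq2 and without Belclare replicate 2, and 2 mucins without that ewe. Among called values signs turned only with the covariate, where none of these was called: ADAMTS14 0.019, CD177 0.87, FZD5 0.15, JAK3 0.21, OCLN 0.21, OVOL2 0.44 and RBP2 1.004. STRA6, not called, ran from -0.06 to 0.213 over single ewes left out. Of 114 named values, 93 kept their call whichever single synchronised follicular ewe was left out. Tested against the fold threshold itself (glmTreat), 26 of the 114 were rated the same and 88 weaker.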
